A study of Equisetum hyemale and Pteris vittata and Marchantia polymorpha with 22 samples.

Results

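Trehalose-6-phosphate synthases were followed through hypoxia in 5 land plants that branched off before the flowering plants. The members were the features whose best *Arabidopsis thaliana* hit in the deposited tables is TPS1 (AT1G78580), TPS5 (AT4G17770), TPS6 (AT1G68020), TPS7 (AT1G06410), TPS8 (AT1G70290), TPS9 (AT1G23870), TPS10 (AT1G60140) or TPS11 (AT2G18700). There were 86 members among 180885 features. The liverwort *Marchantia polymorpha* had 3, the moss *Physcomitrium patens* 6, the lycophyte *Selaginella moellendorffii* 5, the horsetail *Equisetum hyemale* 18 and the fern *Pteris vittata* 54. Membership rested on sequence similarity alone and used no measured value, but the family was chosen with earlier results of these data known. Of the members, 23 were class I (TPS1) and 63 class II, and 0 had TPS7 as their best hit.

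Trehalose-6-phosphate synthase joins UDP-glucose and glucose-6-phosphate into trehalose 6-phosphate, and a phosphatase turns that into trehalose, which trehalase splits into glucose. In flowering plants trehalose 6-phosphate follows the supply of sucrose and restrains SnRK1, the kinase that switches metabolism to sparing when energy is short. Class I enzymes such as TPS1 make the bulk of it in *A. thaliana*. Class II proteins carry a synthase-like and a phosphatase-like domain, and most have no shown synthase activity. Several class II transcripts of *A. thaliana* respond to sugar supply, and these proteins have been studied as partners of SnRK1.

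Whole shoots or thalli were held for 8 h in darkness, in air (21% O2) or under hypoxia (1% O2), so that darkness was common to both groups and O2 was the variable. No mutant or transgene is named for any of them. Each condition had 2 libraries per species, or 3 in *E. hyemale*, giving 22 poly(A) libraries. *M. polymorpha* and *P. patens* were gametophytes and the vascular plants sporophytes, although the series' design text calls the liverwort plants sporophytes. Each replicate pooled several plants. *M. polymorpha* (accession Cam-2) came from single gemmae, *P. patens*, *S. moellendorffii* and *P. vittata* from shoot cuttings, and only *E. hyemale* grew in soil. The liverwort, the lycophyte and the fern had grown on medium with sucrose. A label for tissue reads "shoot" in every library.

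Values are CPM (read counts scaled by library depth to a fixed total), normalized within each species and not corrected for transcript length, so levels were compared between conditions for 1 feature and not between features or species. Depth estimated from the smallest steps between values was 16.2 to 28.8 M reads per library, at which 1 read was worth at most 0.0615 CPM. Best hits to light-harvesting proteins and the Rubisco small subunit were read in every species, and hits to the oxygen-evolving complex (PSBO1) in the vascular plants alone. The most-read hit of any of these kinds had a mean of 1195 to 4639 CPM, depending on the species, so defining genes of green tissue were present. Some hits were near the floor. The PSBO1 hit of *S. moellendorffii* had a mean of 0.80 CPM. The Rubisco hits of *E. hyemale*, Ehym_DN105219_c1_g5 and Ehym_DN105219_c1_g4, had means of 1.06 and 1.12 CPM in air. The first rose to 22.65 under hypoxia and was called higher (log2FC 3.48). Of the best hits to sucrose synthase, pyruvate decarboxylase and alcohol dehydrogenase (ADH1), the enzymes that feed and run fermentation, 10 of 22 were called higher in *E. hyemale* and 1 of 2 in *M. polymorpha*, and 0 in the other species. In *S. moellendorffii* and *P. vittata* 0 features of the whole table were called, so a 0 was fixed there. The paper fitted a negative binomial model and reports regulated orthogroups (groups of related genes) in both species, at a less strict adjusted p. In *P. patens* 18 features were called here, and the paper counts more regulated genes at the same thresholds. The 0 thus belongs to the fit used here and does not show that these species lacked a response. Of the 6 hits in *S. moellendorffii*, 3 were higher in every hypoxia library than in any air library, beside 26% of all features. In *P. patens* 4 of 6 were (1 lower), beside 4385 of 21442 features, and in *P. vittata* 8 of 21 (4 lower), beside 21.6%. The pyruvate decarboxylase hit 157772 of *S. moellendorffii* had a log2FC of 2.44. The air libraries of *S. moellendorffii* differed from each other in some of these hits. The ADH1 hit 145705 was at 712 CPM in air replicate 3, at 111 in the other air library, and at 2135 and 1762 under hypoxia. The ADH1 hit 412432 was at 34.01 CPM in air replicate 3 and at 45.54 in the other air library.

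No member was called in any species. A call was an adjusted p (limma, Benjamini-Hochberg over all features of a species) of 0.01 or less together with an absolute log2 fold change (log2FC, hypoxia over air, on log2(CPM + 1)) above 1. Of all features, the same rule called 2.82% in the liverwort, 0.0839% in the moss, 0% in the lycophyte, 0.719% in the horsetail and 0% in the fern, so a count of 0 among so few members lay near the background. Without adjustment 15 of 86 members had a p under 0.05. They were 1 of 3 liverwort members (31.2% of all features there), 1 of 6 in the moss (10.9%), 2 of 5 in the lycophyte (15.8%), 0 of 18 in the horsetail (12.7%) and 11 of 54 in the fern (10.3%). The fern members are transcripts, and those of 1 gene share reads. Neither 11 of 54 nor 15 of 86 is thus a count of separate observations. Of the 11, 6 were TPS1 transcripts, 4 from the gene TRINITY_DN34776_c0_g1 and 2 from TRINITY_DN34776_c1_g1.

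Most members moved little. The median log2FC of the members was -0.04 in the liverwort, the lycophyte and the horsetail, -0.01 in the moss and 0.12 in the fern, while that of all features was 0.00 in each table. The absolute log2FC was under 0.5 for 64 of the 86 members. In *P. patens* the median absolute log2FC was 0.03 for the members and 0.11 for all features, and in *E. hyemale* it was 0.10 beside 0.18. In *P. vittata* the order was the other way, with 0.35 for the members beside 0.23. The tables were normalized separately, so these values describe each species by itself. In bulk RNA, fewer cells that express a gene and less RNA per cell cannot be told apart.

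**Figure D1:**
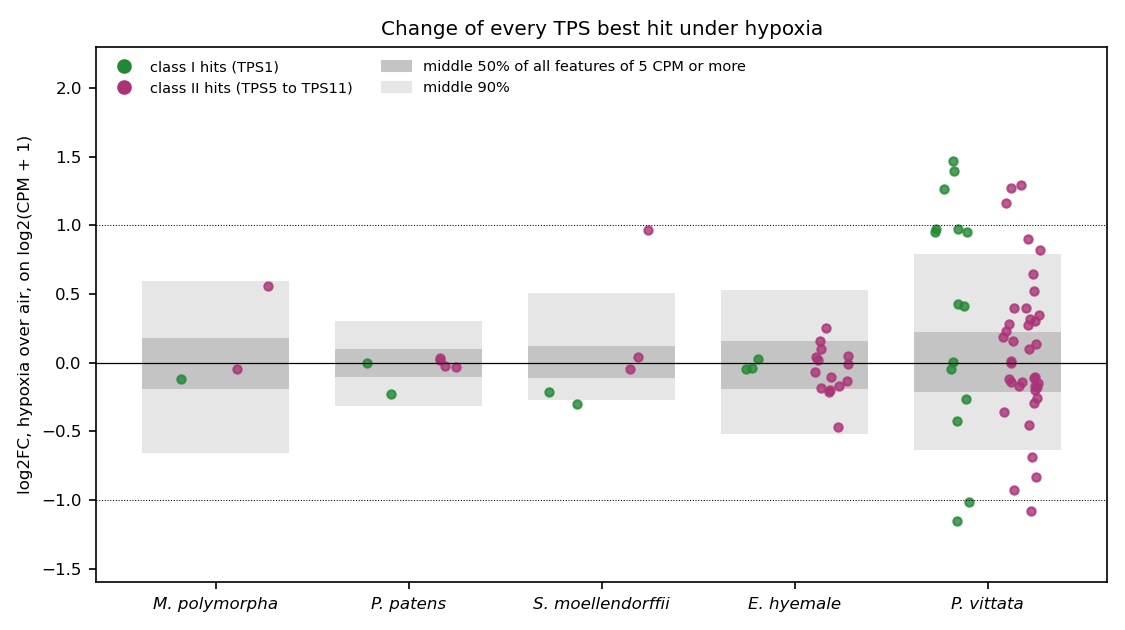
Each point is 1 member, placed by its log2FC (hypoxia over air, on log2(CPM + 1)) in its species, with class I in green and class II in purple; dark and light bands hold the middle 50% and 90% of all features of 5 CPM or more, and dotted lines mark a log2FC of 1 and -1. Points of *P. patens* and *E. hyemale* lie close to 0, 1 *S. moellendorffii* class II hit lies at 0.97, and *P. vittata* transcripts spread from -1.15 to 1.47.

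TPS1, the class I enzyme and the source of most trehalose 6-phosphate in *A. thaliana*, had hits in all 5 species. In *M. polymorpha* the single hit Mapoly0056s0103.1 was at 89.0 and 97.3 CPM in air and at 81.9 and 89.6 under hypoxia. The groups overlapped, and the log2FC was -0.12 (95% interval -0.35 to 0.12, adjusted p = 0.482, limma). When libraries were scaled to their totals the groups no longer overlapped, with hypoxia lower.

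*P. patens* had 2 TPS1 hits. Pp3c5_17730 was at 125.5 and 120.3 CPM in air (replicates 2 and 3) and at 109 and 101 under hypoxia (replicates 1 and 3), so both hypoxia libraries were lower. Its log2FC was -0.23 (SE 0.096, 95% interval -0.45 to 0.00), and the adjusted p over all features was 0.454. Libraries that do not overlap and are lower under hypoxia occurred for 20.9% of all features of this species. The other hit, Pp3c6_16450, was at 90.1 and 76.9 CPM in air and at 80.8 and 85.2 under hypoxia, with both hypoxia values between the air values and a log2FC of 0.00 (95% interval -0.26 to 0.25).

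Both TPS1 hits of *S. moellendorffii* were lower in both hypoxia libraries than in either air library. The hit 184811 was at 216 CPM in the air library without a matching replicate number and at 255 in air replicate 3, and at 192 and 213 under hypoxia (log2FC -0.21, SE 0.11, adjusted p = 0.404). The hit 171410 was at 27.5 and 29.7 CPM in air and at 22.1 and 24.0 under hypoxia (log2FC -0.30, SE 0.089, 95% interval -0.52 to -0.08, adjusted p = 0.22). For both, air replicate 3, in which the ADH1 hit was high, was the highest library. The share of all features that were lower in this way was 23.5%.

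The 3 TPS1 hits of *E. hyemale* come from 1 Trinity component, the group of related contigs that the assembler Trinity reports together. Ehym_DN109499_c1_g1 was at 34.6, 37.7 and 46.0 CPM in air and at 41.0, 44.4 and 30.3 under hypoxia in replicates 1, 3 and 4. Ehym_DN109499_c1_g4 was at 21.4, 15.8 and 15.4 CPM in air and at 16.3, 17.3 and 19.4 under hypoxia. The third, Ehym_DN109499_c1_g2, was at 4.50, 3.42 and 5.23 CPM in air and at 5.51, 6.60 and 1.80 under hypoxia. All 3 overlapped between air and hypoxia, with log2FC values of -0.04, 0.03 and -0.04 and adjusted p-values of 0.959 or more. Their summed level was 61.3 ± 4.89 CPM in air (SD, n = 3) and 60.9 ± 8.61 under hypoxia (n = 3).

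In *P. vittata* the 15 TPS1 transcripts belong to 3 Trinity genes of 1 component, DN34776, and these genes differed from each other. When the transcripts of a Trinity gene were summed, TRINITY_DN34776_c0_g1 was at 18.0 and 10.03 CPM in air and at 35.1 and 26.0 under hypoxia in replicates 1 and 3. TRINITY_DN34776_c1_g1 was at 20.4 and 14.6 CPM in air and at 37.2 and 30.3 under hypoxia. TRINITY_DN34776_c2_g1 was at 45.3 and 47.2 CPM in air and at 46.4 and 40.2 under hypoxia. The first and second were higher in both hypoxia libraries than in either air library, and the third overlapped.

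The log2FC was 1.11 for TRINITY_DN34776_c0_g1 (SE 0.26, 95% interval 0.50 to 1.72, adjusted p = 0.123) and 0.92 for TRINITY_DN34776_c1_g1 (SE 0.18, 95% interval 0.50 to 1.34, adjusted p = 0.0821, limma over 36196 Trinity genes). For TRINITY_DN34776_c2_g1 it was -0.10 (95% interval -0.38 to 0.19, adjusted p = 0.761). None was called, nor was any of the 11 Trinity genes that hold members, beside 0.0221% of all Trinity genes. Without 1 library at a time, the first kept a log2FC of 0.718 to 1.502 and the second of 0.695 to 1.145. Air replicate 1 was above air replicate 3 in both.

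The same split ran through the single transcripts. All 4 transcripts of TRINITY_DN34776_c0_g1 were higher in both hypoxia libraries, with log2FC values from 0.95 to 0.97, and so were all 4 of TRINITY_DN34776_c1_g1, from 0.43 to 1.47. Of the 7 transcripts of TRINITY_DN34776_c2_g1, 0 were higher, 1 was lower and 6 overlapped. Transcripts higher in both hypoxia libraries made up 21.6% of the whole table, and 0% of it was called. Transcripts of 1 gene share reads, so they are not separate observations.

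The largest relative change among TPS1 transcripts was that of TRINITY_DN34776_c1_g1_i3, at 0.160 and 0.165 CPM in air, about the level of a few reads, and at 2.49 and 1.96 under hypoxia (log2FC 1.47, SE 0.20, 95% interval 0.96 to 1.98, adjusted p = 0.235). TRINITY_DN34776_c1_g1_i4 was at 0.285 and 1.32 CPM in air and at 3.81 and 2.60 under hypoxia. TRINITY_DN34776_c1_g1_i1 was at 7.71 and 1.79 CPM in air and at 12.7 and 11.4 under hypoxia. The most-read transcript of that gene, TRINITY_DN34776_c1_g1_i2, was at 12.2 and 11.4 CPM in air and at 18.3 and 14.4 under hypoxia, with a log2FC of 0.43.

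In TRINITY_DN34776_c0_g1 the transcripts moved side by side. Transcript i6 was at 6.72 and 4.32 CPM in air and at 14.5 and 8.90 under hypoxia. Transcript i12 was at 4.83 and 3.0 CPM in air and at 9.63 and 7.44 under hypoxia. Transcript i9 was at 3.74 and 1.59 CPM in air and at 6.57 and 5.25 under hypoxia. Transcript i2 was at 2.71 and 1.12 CPM in air and at 4.41 and 4.43 under hypoxia. In every one of them air replicate 3 was the lowest library.

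The transcripts of TRINITY_DN34776_c2_g1 did not move together. Transcript i3 was at 11.8 and 9.18 CPM in air and at 15.6 and 3.33 under hypoxia, while i7 was at 12.0 and 9.17 in air and at 0.896 and 16.1 under hypoxia. The 2 hypoxia libraries thus went opposite ways in i3 and i7, while the summed gene was at 46.4 and 40.2. Transcript i6 was at 6.11 and 13.0 CPM in air and at 12.7 and 11.9 under hypoxia, and i2 was at 8.52 and 8.20 in air and at 10.5 and 6.14 under hypoxia. Transcript i8 was at 3.41 and 4.73 CPM in air and at 4.11 under hypoxia in replicate 1, and was listed at 0 in hypoxia replicate 3. Only i4, at 2.65 and 1.90 CPM in air and at 1.57 and 1.87 under hypoxia, was without overlap. The last transcript, i1, stayed at 0.891 to 0.984 CPM and was the 1 member of all 86 with a mean under 1 CPM.

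**Figure D2:**
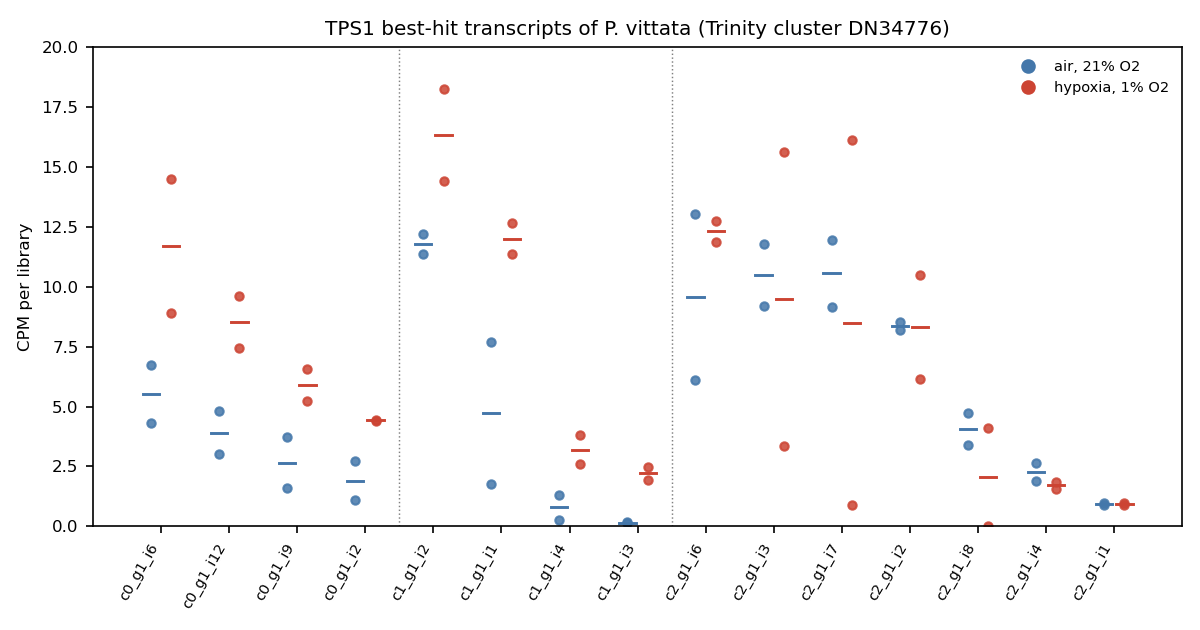
CPM per library (linear axis) of the 15 *P. vittata* transcripts with TPS1 as best hit, split by dotted lines into the Trinity genes c0_g1, c1_g1 and c2_g1 of component DN34776; points are the 2 libraries of a condition and lines their mean. All 8 transcripts of c0_g1 and c1_g1 have both hypoxia points above both air points, and of the 7 in c2_g1 none does.

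Class II was represented in *M. polymorpha* by 1 TPS5 hit and 1 TPS6 hit. TPS5 is a class II protein whose transcript answers to sugar in *A. thaliana*. Its liverwort hit, Mapoly0128s0020.1, was at 511 and 572 CPM in air (541 ± 42.9, SD, n = 2) and at 749.6 and 845 under hypoxia (797 ± 67.5, n = 2). Both hypoxia libraries were above both air libraries. The ratio of means was 1.47 and the log2FC 0.56 (SE 0.13, 95% interval 0.26 to 0.85), with an adjusted p of 0.0217. That p missed the threshold of 0.01 and the change was smaller than the fold required for a call, while 16.8% of the liverwort features had an adjusted p of 0.05 or less. Its p ranked 1501 of 13572. Without 1 library at a time the log2FC lay between 0.47 and 0.64 and the adjusted p between 0.0191 and 0.135.

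The TPS6 hit of the liverwort, Mapoly0003s0056.1, was at 221 and 238 CPM in air and at 227 and 218 under hypoxia. TPS6 is a further class II protein, known in *A. thaliana* for an effect on cell shape. The groups overlapped, and the log2FC was -0.04 (95% interval -0.28 to 0.19, adjusted p = 0.81). So 1 of 3 liverwort members was higher without overlap, beside 30.1% of all features.

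The largest change outside the fern was that of 1 of the 3 TPS5 hits of *S. moellendorffii*. The hit 117822 was at 119.5 and 125.5 CPM in air (122.5 ± 4.26, SD, n = 2) and at 255 and 227 under hypoxia (241 ± 19.5, n = 2), a ratio of 1.97. Its log2FC was 0.97 (SE 0.084, 95% interval 0.76 to 1.18). Only 5 of 16892 features had a smaller p, yet the adjusted p was 0.103, in a table where 0 features reached 0.05. Air replicate 3, which was high in ADH1, lay close to the other air library here.

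Which library entered the fit decided how this value stood. Without air replicate 3 the log2FC was 1.00 and the adjusted p 0.0103, and without hypoxia replicate 1 they were 0.89 and 0.765. With a robust variance prior the adjusted p was 0.0272. Under all of these the value was higher under hypoxia, and in none was it called.

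The other TPS5 hits of the lycophyte did not share this change. The hit 184345 was at 316 and 318 CPM in air and at 329.7 and 322.5 under hypoxia. Its hypoxia libraries were higher by a small margin, with a log2FC of 0.04 (95% interval -0.14 to 0.22), and were lower than air when libraries were scaled to their totals. The hit 80360 was at 212 and 188 CPM in air and at 197 and 190.4 under hypoxia, with overlap and a log2FC of -0.04 (95% interval -0.26 to 0.17). Of the 5 lycophyte members, 2 were higher and 2 lower without overlap, beside 26% and 23.5% of all features.

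In *P. patens* all 4 class II hits, each to TPS5, overlapped between air and hypoxia. Pp3c7_15250 was at 130.2 and 102 CPM in air and at 114 and 120.2 under hypoxia. Pp3c11_17560 was at 105 and 99.6 CPM in air and at 104 and 96.8 under hypoxia. Pp3c16_19150 was at 81.6 and 63.4 CPM in air and at 78.0 and 69.3 under hypoxia. The least-read one, Pp3c25_6990, was at 16.5 and 17.4 CPM in air and at 18.0 and 15.4 under hypoxia. Their log2FC values lay between -0.03 and 0.03 with adjusted p-values of 0.961 or more, and the 95% intervals together ran from -0.30 to 0.35. Their summed level was 308 ± 35.8 CPM in air (SD, n = 2) and 308 ± 8.35 under hypoxia (n = 2).

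**Figure D3:**
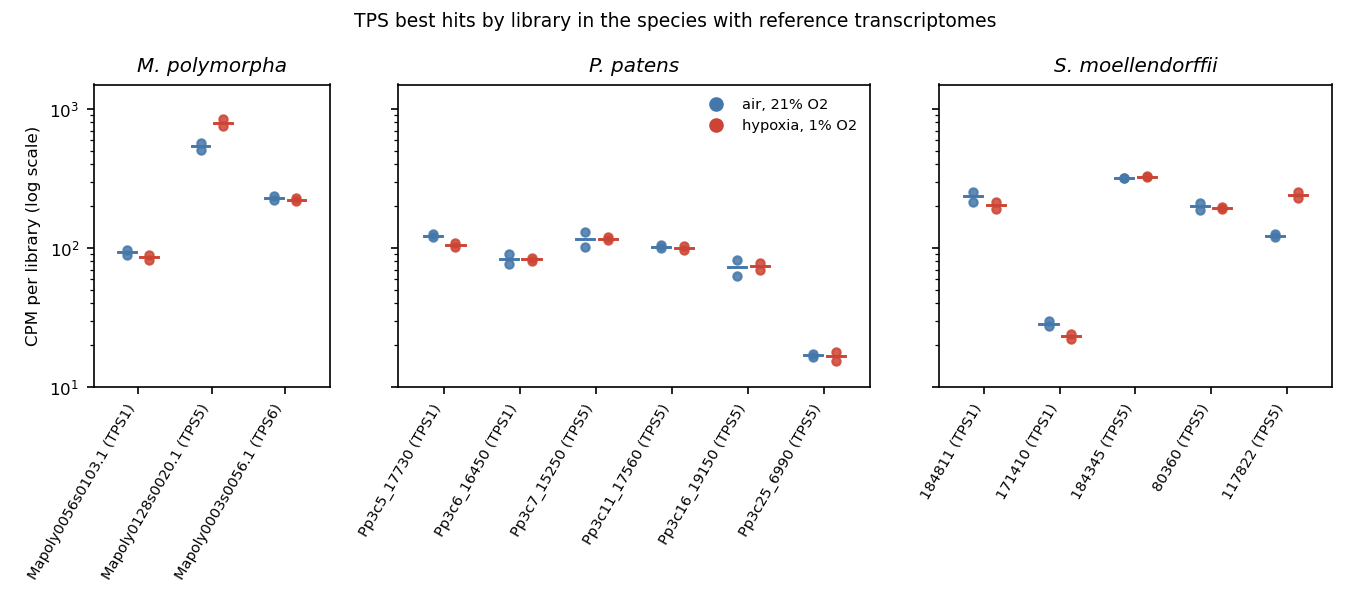
CPM per library (log axis) of the liverwort (3), moss (6) and lycophyte (5) members, named by identifier with the best *A. thaliana* hit in brackets; points are libraries and lines means. The hypoxia points stand clear above the air points in Mapoly0128s0020.1 and in 117822, while the 4 TPS5 hits of *P. patens* overlap.

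*E. hyemale* had 15 class II hits, 11 of them to TPS5, 2 to TPS6 and 2 to TPS8, and all had an absolute log2FC under 0.5. The most-read member was the TPS5 hit Ehym_DN110949_c6_g3, at 303, 296 and 337 CPM in air and at 442, 392 and 297 under hypoxia in replicates 1, 3 and 4. Hypoxia replicates 1 and 3 were above all air libraries and replicate 4 among them. The log2FC was 0.26 (SE 0.15, 95% interval -0.08 to 0.59, adjusted p = 0.548). Without hypoxia replicate 4 it was 0.42 with an adjusted p of 0.0391, and over all libraries left out in turn it lay between 0.13 and 0.42.

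Hypoxia replicate 4 was the lowest of the 6 libraries for 10 of the 18 horsetail members. Over all features of 5 CPM or more it was the lowest for 27.3%, the largest share of any library. Its part in the member values was not tested.

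From the same Trinity component, the TPS5 hit Ehym_DN110949_c6_g4 was at 68.4, 48.5 and 52.9 CPM in air and at 81.5, 68.7 and 38.6 under hypoxia, a wider spread under hypoxia than in air. Ehym_DN110949_c6_g9 was at 88.2, 109.6 and 115 CPM in air and at 122, 102 and 92.9 under hypoxia. The TPS5 hits Ehym_DN107959_c0_g3 (63.6, 59.1 and 74.1 CPM in air against 76.5, 76.1 and 66.7) and Ehym_DN108644_c0_g1 (66.4, 64.5 and 86.6 in air against 74.0, 67.8 and 51.6) overlapped as well. Their log2FC values were 0.10, 0.02, 0.16 and -0.17, none with an adjusted p under 0.699.

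A single horsetail member was without overlap, the TPS5 hit Ehym_DN108644_c0_g2, at 6.34, 5.25 and 6.07 CPM in air and at 5.19, 5.17 and 2.22 under hypoxia. The nearest air and hypoxia libraries were about 1 read apart, and the log2FC was -0.47 (95% interval -1.08 to 0.15, adjusted p = 0.55). Of all horsetail features, 9.38% were lower without overlap.

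TPS8, a class II gene of *A. thaliana*, was the best hit of Ehym_DN107709_c1_g4 and Ehym_DN107709_c1_g5. The first was at 147, 126.5 and 144 CPM in air and at 114.5, 111 and 140.2 under hypoxia, so 2 of 3 hypoxia libraries were below all of air (log2FC -0.20, 95% interval -0.48 to 0.09, adjusted p = 0.608). The second was at 42.0, 44.6 and 53.7 CPM in air and at 61.1, 44.6 and 31.9 under hypoxia (log2FC -0.07). The TPS6 hit Ehym_DN102350_c1_g1 was at 43.4, 42.6 and 46.9 CPM in air and at 46.3, 53.9 and 38.0 under hypoxia (log2FC 0.04). The remaining 6 class II hits had mean levels from 1.56 to 28.6 CPM, and 1 of them, Ehym_DN109260_c4_g1, was listed at 0 in hypoxia replicate 4.

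**Figure D4:**
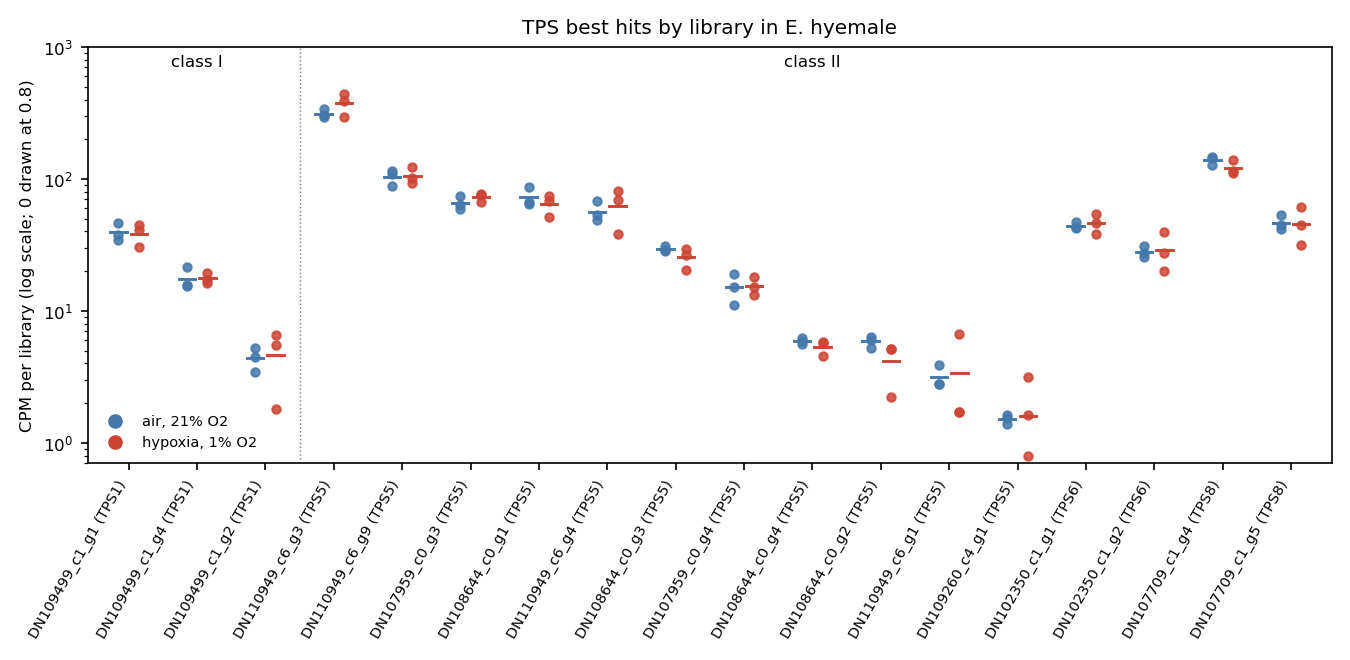
CPM per library (log axis) of the 18 *E. hyemale* members, class I left and class II right of the dotted line, with the best *A. thaliana* hit in brackets; points are the 3 libraries of a condition, lines their mean, and the value of 0 is drawn at 0.8. Air and hypoxia points overlap in 17 of the 18, and in 10 of the 18 hypoxia replicate 4 is the lowest point of all.

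The 39 class II transcripts of *P. vittata* fall into 8 Trinity genes, and 3 of these hold transcripts with more than 1 best hit, so that TPS5, TPS6, TPS9, TPS10 and TPS11 are not separate genes there. Summed per Trinity gene, 1 was higher and 1 lower without overlap, and the log2FC values ran from -0.32 to 0.42. TRINITY_DN36353_c0_g1, with TPS5 and TPS6 hits, was at 127 and 128 CPM in air and at 179 and 163 under hypoxia. Both hypoxia libraries were higher, with a log2FC of 0.42 (SE 0.12, 95% interval 0.14 to 0.70, adjusted p = 0.186). TRINITY_DN33112_c0_g1, with TPS5 hits, was at 130 and 162 CPM in air and at 112 and 120.6 under hypoxia, lower in both (log2FC -0.32, 95% interval -0.65 to 0.02, adjusted p = 0.373).

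The remaining 6 Trinity genes overlapped. TRINITY_DN36063_c0_g2, with TPS5, TPS9 and TPS11 hits, was at 123 and 161 CPM in air and at 206 and 154 under hypoxia (log2FC 0.33, and 0.12 to 0.54 without 1 library at a time). TRINITY_DN36373_c1_g2 and TRINITY_DN36373_c1_g1, both with TPS6 hits, were at 201 and 252 and at 180.3 and 248 CPM in air, and at 206 and 193 and at 200.1 and 199 under hypoxia. The sum of TRINITY_DN36373_c1_g1 covers 5 transcripts, of which 4 are members. TRINITY_DN35512_c0_g1, with TPS5 hits, was at 100.2 and 118 CPM in air and at 105 and 104 under hypoxia. TRINITY_DN35942_c0_g2 (TPS6) was at 85.8 and 91.3 CPM in air and at 83.0 and 90.6 under hypoxia, and TRINITY_DN35698_c0_g1 (TPS5 and TPS10) at 30.3 and 39.3 in air and at 36.1 in both hypoxia libraries. Over the 11 Trinity genes of both classes, 3 were higher and 1 lower without overlap, beside 22.5% and 24.4% of all Trinity genes.

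**Figure D5:**
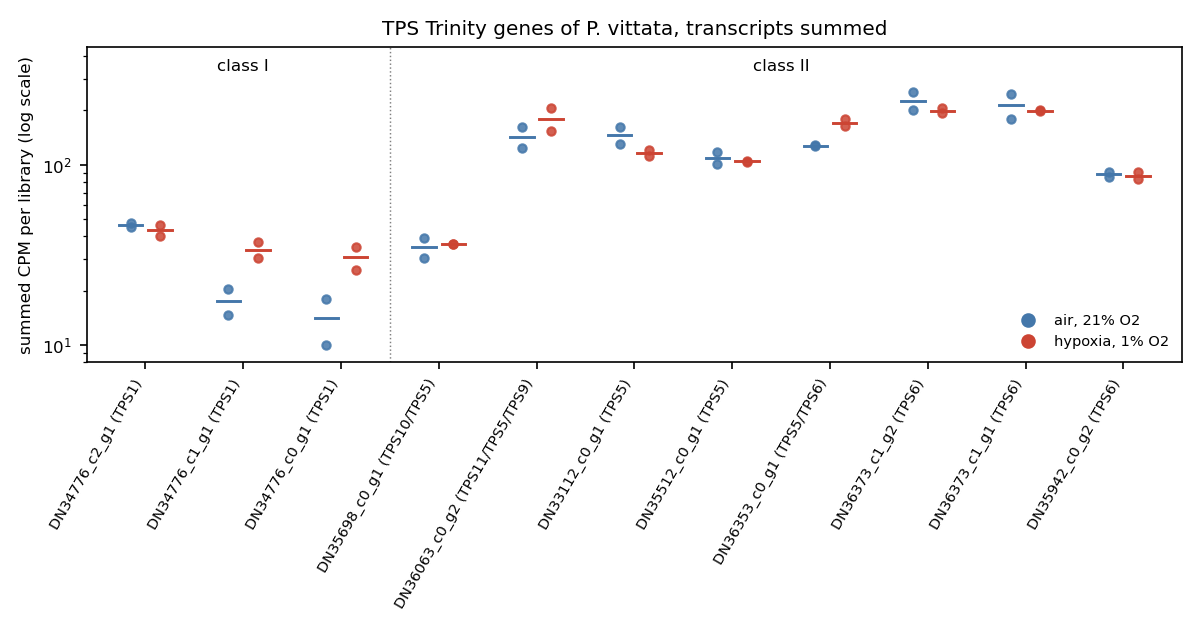
Summed CPM per library (log axis) of the 11 *P. vittata* Trinity genes that hold members, class I left and class II right of the dotted line, with the best hits of their transcripts in brackets; points are the 2 libraries of a condition and lines their mean. The class I genes DN34776_c1_g1 and DN34776_c0_g1 and the class II gene DN36353_c0_g1 have both hypoxia points above the air points, DN33112_c0_g1 has both below, and the rest overlap.

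Within class II genes of the fern, single transcripts moved further than the sums. In TRINITY_DN36353_c0_g1, 4 of 5 transcripts were higher without overlap. Transcript i3 was at 8.53 and 5.37 CPM in air and at 16.8 and 19.0 under hypoxia (log2FC 1.27, SE 0.25, adjusted p = 0.289), i2 at 3.37 and 3.12 in air and at 8.0 and 6.0 under hypoxia (log2FC 0.90), i1 at 34.9 and 32.9 in air and at 49.1 and 41.2 under hypoxia (log2FC 0.40), and the most-read, i5, at 63.7 and 66.4 in air and at 85.2 and 77.9 under hypoxia (log2FC 0.32). In TRINITY_DN36063_c0_g2, i6 was at 8.78 and 16.4 CPM in air and at 37.8 and 25.3 under hypoxia (log2FC 1.29, SE 0.35, adjusted p = 0.366) and i5 at 8.92 and 28.0 in air and at 45.8 and 29.7 under hypoxia (log2FC 1.16). Without air replicate 1 the log2FC was 0.88 for i6 and 0.39 for i5, and without air replicate 3 it was 1.71 and 1.94. The other 6 transcripts of that gene overlapped.

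Other transcripts were lower. TRINITY_DN35512_c0_g1_i2 was at 17.2 and 18.2 CPM in air and at 9.26 and 6.62 under hypoxia (log2FC -1.08, SE 0.22, 95% interval -1.63 to -0.53, adjusted p = 0.289), while the other 5 transcripts of its gene overlapped and the sum did not change beyond the spread. TRINITY_DN33112_c0_g1_i3 was at 30.0 and 36.2 CPM in air and at 16.2 and 20.1 under hypoxia (log2FC -0.83, SE 0.19, adjusted p = 0.313). TRINITY_DN35698_c0_g1_i5, a TPS10 hit, was at 2.61 and 2.89 CPM in air and at 1.94 and 0.837 under hypoxia (log2FC -0.69). TRINITY_DN35942_c0_g2_i3 (TPS6, log2FC -0.45) and TRINITY_DN36373_c1_g2_i4 (TPS6, log2FC -0.36) were lower to a smaller degree. Of the 8 most-read class II transcripts, i5 of TRINITY_DN36353_c0_g1, given above, was higher without overlap (log2FC 0.32). TRINITY_DN36373_c1_g2_i3 and TRINITY_DN33112_c0_g1_i2 were lower without overlap (log2FC -0.17 and -0.30), and the rest overlapped. TRINITY_DN36373_c1_g2_i1 was at 107 and 145 CPM in air and at 115 and 114 under hypoxia, and i3 of the same gene was at 54.3 and 67.8 in air and at 53.6 and 53.9 under hypoxia. TRINITY_DN36373_c1_g1_i3 was at 73.6 and 109.7 CPM in air and at 85.9 and 76.9 under hypoxia, and i2 of that gene was at 70.3 and 89.8 in air and at 72.8 and 70.2 under hypoxia. In all 4, which are TPS6 hits, air replicate 3 was the highest library. TRINITY_DN33112_c0_g1_i1, a TPS5 hit, was at 58.4 and 68.1 CPM in air and at 56.3 and 60.5 under hypoxia, and i2 of that gene was at 41.6 and 57.5 in air and at 39.4 and 40.0 under hypoxia. TRINITY_DN36063_c0_g2_i1 was at 44.0 and 57.5 CPM in air and at 53.9 and 38.4 under hypoxia. The log2FC values of the 7 apart from i5 of TRINITY_DN36353_c0_g1 lay between -0.30 and -0.11, with adjusted p-values of 0.662 or more.

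Over all 39 class II transcripts, 7 were higher, 8 lower and 24 overlapped, beside 21.6% and 20.9% of all transcripts, and the median log2FC was 0.01.

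Summing CPM over the hits of a class gave the total read share of that class in each species. For class I the sum was 77.8 ± 8.37 CPM in air (SD, n = 2) and 108 ± 15.7 under hypoxia (n = 2) in *P. vittata*, with both hypoxia libraries higher. In *P. patens* it was 206 ± 13.0 in air and 188 ± 2.71 under hypoxia, and in *S. moellendorffii* 264 ± 29.0 and 226 ± 16.3, with both hypoxia libraries lower (n = 2 each). The class I sums of the liverwort and the horsetail overlapped. For class II the sum was higher in both hypoxia libraries in *M. polymorpha*, 771 ± 54.8 against 1020 ± 61.4 CPM, and in *S. moellendorffii*, 639.7 ± 11.4 against 761 ± 29.2 (n = 2 each). It overlapped in the moss, in *E. hyemale*, at 930.5 ± 62.7 against 982 ± 148 (n = 3 each), and in the fern, at 1081 ± 154 against 1088 ± 47.4 (n = 2 each). The sums were not tested, since with 2 or 3 libraries a condition no two-sided exact permutation test of a single value can reach 0.05.

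The next enzyme, trehalose-6-phosphate phosphatase (best hits TPPA to TPPJ), had 0 calls among 1, 7, 2, 21 and 20 hits in the order from liverwort to fern. The single liverwort hit, Mapoly0036s0112.1, was at 147 and 132 CPM in air and at 145 and 120.3 under hypoxia. In *S. moellendorffii* the TPPA hit 104829 was at 44.9 and 70.9 CPM in air and at 116 and 95.9 under hypoxia (log2FC 0.89, SE 0.22, adjusted p = 0.166), with air replicate 3 the higher air library. The other, more-read hit, TPPB 105991, was at 229.6 and 260.7 CPM in air and at 221.5 and 215.9 under hypoxia, lower without overlap (log2FC -0.16). In *P. patens* the TPPA hit Pp3c4_20080 was at 4.66 and 4.0 CPM in air and at 7.93 and 7.78 under hypoxia (log2FC 0.74, adjusted p = 0.105). It was the only 1 of the 7 moss hits with a log2FC above 0, and 6 were below 0. The most-read, Pp3c3_22990, was at 363 and 388.6 CPM in air and at 360.3 and 329.5 under hypoxia, lower without overlap (log2FC -0.12).

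In *E. hyemale* 14 of the 21 phosphatase hits overlapped. The TPPB hit Ehym_DN109994_c6_g1 was at 14.6, 14.7 and 20.1 CPM in air and at 6.14, 7.55 and 11.1 under hypoxia (log2FC -0.94, SE 0.22, adjusted p = 0.0791). The TPPD hit Ehym_DN105057_c0_g1 was at 3.18, 4.24 and 2.54 CPM in air and at 7.83, 5.66 and 13.2 under hypoxia (log2FC 1.14, SE 0.29, adjusted p = 0.0981). Of all 21, 5 were higher and 2 lower without overlap, beside 9.66% and 9.38% of all features. In *P. vittata* 11 of 20 phosphatase transcripts were higher and 2 lower without overlap, beside 21.6% and 20.9% of all transcripts, with a median log2FC of 0.38. Most of the higher ones belong to the Trinity genes TRINITY_DN30943_c1_g1 and TRINITY_DN34960_c0_g1. Transcripts of 1 gene share reads, so this is not a count of separate observations. Among the higher ones were 4 transcripts of TRINITY_DN30943_c1_g1. Of these, i1 was listed at 0 in both air libraries and was at 6.36 and 3.25 CPM under hypoxia, and i3 was at 16.9 and 8.89 in air and at 55.7 and 29.6 under hypoxia (log2FC 1.65, adjusted p = 0.346).

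Trehalase (TRE1) and UDP-glucose pyrophosphorylase (UGP1 and UGP2), which consume trehalose and supply UDP-glucose, also had 0 calls among 2, 6, 5, 7 and 15 hits, a list that also allowed for TPS2 to TPS4. The liverwort TRE1 hit Mapoly0055s0045.1 was at 62.0 and 59.6 CPM in air and at 36.5 and 33.4 under hypoxia, a log2FC of -0.78 (SE 0.10) with an adjusted p of 0.0025, which missed a call by its fold change alone. In *S. moellendorffii* all 4 TRE1 hits were higher in both hypoxia libraries, beside 26% of all features, with 109304 the furthest, at 12.3 and 15.5 CPM in air and at 20.5 and 20.1 under hypoxia (log2FC 0.52, adjusted p = 0.165). In *P. patens* the least-read TRE1 hit, Pp3c23_11240, was at 11.3 and 13.9 CPM in air and at 17.7 and 16.9 under hypoxia (log2FC 0.44, adjusted p = 0.287). By far the most-read, Pp3c5_16470, was at 484 and 495.9 CPM in air and at 477.1 and 458.3 under hypoxia, lower without overlap (log2FC -0.07). Between them in level, Pp3c16_7830 was higher without overlap (log2FC 0.11). In *E. hyemale* the UGP2 hit Ehym_DN106914_c1_g1 was at 79.4, 76.5 and 78.9 CPM in air and at 46.3, 51.8 and 56.8 under hypoxia (log2FC -0.59, SE 0.12, adjusted p = 0.0395).

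SnRK1 subunits and the starvation genes that follow its activity in *A. thaliana* (KIN10, KIN11, SNF4, DIN1, DIN6, DIN10 and bZIP11) had 0 calls among 5, 11, 7, 14 and 9 hits. In *M. polymorpha* all 5 had a log2FC under 0 and 3 were lower without overlap, beside 30.4% of all features. The hit to DIN6, an asparagine synthetase that rises in darkness in *A. thaliana*, was Mapoly0174s0014.1, at 406 and 495 CPM in air and at 272 and 208 under hypoxia (log2FC -0.91, SE 0.16, adjusted p = 0.0071). The KIN10 hit Mapoly0038s0082.1 was at 36.8 and 35.9 CPM in air and at 24.99 and 20.5 under hypoxia (log2FC -0.66). The more-read KIN10 hit, Mapoly0160s0010.1, overlapped, at 81.69 and 90.38 CPM in air and at 84.8 and 75.27 under hypoxia (log2FC -0.10). The DIN1 hit Mapoly0041s0102.1 was at 289 and 288 CPM in air and at 217 and 160.1 under hypoxia (log2FC -0.63, adjusted p = 0.022).

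In *P. patens* the most-read of 3 DIN1 hits, Pp3c2_37990, lay in the other direction, at 663 and 672 CPM in air and at 996 and 894.5 under hypoxia (log2FC 0.50, adjusted p = 0.23). The other DIN1 hits, Pp3c16_18500 and Pp3c16_18502, overlapped, with log2FC values of -0.10 and -0.07. The DIN6 hit 81509 of *S. moellendorffii* was at 71.1 and 74.6 CPM in air and at 61.9 and 62.1 under hypoxia (log2FC -0.23, adjusted p = 0.217). Its KIN11 hit 79809 (log2FC 0.45) and most-read KIN10 hit 80443 (log2FC 0.22) were higher without overlap. Of the 7 lycophyte hits, 5 had a log2FC above 0 and 2 below. Without overlap 2 were higher and 2 lower, beside 26% and 23.5% of all features. In *E. hyemale* the KIN11 hit Ehym_DN107918_c5_g1 was at 1.70, 0.209 and 0.907 CPM in air and at 2.06, 5.29 and 2.07 under hypoxia (log2FC 1.08, adjusted p = 0.221). It was the least-read of 5 KIN11 hits there, and the other 4, with means of 28.6 to 113 CPM, had log2FC values from -0.37 to -0.10, 2 of them lower without overlap. In *P. vittata* the SNF4 transcript TRINITY_DN29960_c0_g1_i2 was at 12.5 and 17.0 CPM in air and far under the level of 1 read in both hypoxia libraries (log2FC -3.96, adjusted p = 0.184), and transcript i3 of the same Trinity gene was at 6.69 and 4.80 in air and at 3.08 and 4.36 under hypoxia. The most-read transcript of that gene, i1, was at 66.8 and 58.8 CPM in air and at 72.05 and 68.7 under hypoxia, higher without overlap (log2FC 0.17, adjusted p = 0.731).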

How the data were processed

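Poly(A) libraries of 5 species in air and hypoxia were analysed. The authors trimmed the reads, pseudo-aligned them with Kallisto to reference transcriptomes or, in *E. hyemale* and *P. vittata*, Trinity assemblies, removed loci without any library above a read minimum, and deposited log2 CPM values per library after TMM scaling in edgeR. Tool versions are not given in the sources used here. A 0 is deposited as minus infinity, or in *E. hyemale* as an error text, so those log2 values were read as text. A locus could pass that minimum through the group in which it was high. Kallisto divides reads among similar sequences, so the levels of paralogs and of transcripts of 1 gene are uncertain. Other columns hold the authors' log2 fold changes, adjusted p-values and average log2 CPM; of these only the average was used, to check rows. In *E. hyemale* the values follow the identifiers sorted so that _ comes before digits: the correlation with the average was 0.0103 as deposited and 0.9997 after sorting, over 55254 features. Powers of 2 summed to 969918 to 1031729 per library. Between 40.5% and 80.5% of low values were within 0.1 of a whole read, so no count test was made.

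A best hit was given for 77.3%, 80.7%, 86.1%, 38.2% and 44.7% of features in the order from liverwort to fern, and features without one could not be members. In *S. moellendorffii* 1 air column has a number found in no air label, so it entered as an unnumbered air library. limma 3.58.1 in R 4.3.3 with a trended prior was fitted to log2(CPM + 1), hypoxia against air, over all features of each species, with Benjamini-Hochberg adjustment. Calls needed an adjusted p of 0.01 or less and an absolute log2FC above 1, the thresholds behind the paper's counts of regulated genes; it uses an adjusted p of 0.05 elsewhere, which was run as an alternative. The paper's counts come from a negative binomial model in edgeR, so the calls made here with limma do not repeat them. *P. vittata* transcripts were also summed per Trinity gene. "Without overlap" means that all libraries of 1 condition lie on 1 side of all of the other. Values with ± are means and SD, and intervals are 95% intervals from limma. Replicates correlated at 0.9459 to 0.9936. The paper calls the replicates biological, each of several plants, without saying whether they were treated apart. The p-values thus measure the spread between these pools of plants, which may leave out the spread between separate treatments.

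The members and lists were chosen with earlier results of these data known. Named were every member of *M. polymorpha*, *P. patens* and *S. moellendorffii*. In *E. hyemale* and *P. vittata* these were the TPS1 hits of 1 CPM or more on average, the class II hits with the 8 highest means, and the 5 largest increases and 5 largest decreases without overlap among class II hits of 1 CPM or more. From the other lists the 3 largest changes qualified, of which some are given. Other hits of these lists are given beside them outside that rule, among them more-read hits and hits that went the other way. TRINITY_DN34776_c2_g1_i1 and Ehym_DN109260_c4_g1 were named after their values were seen, and the summed Trinity genes were all named. Deviations from group means of same-numbered air and hypoxia libraries correlated at 0.031 in *M. polymorpha*, 0.0608 in *P. vittata* and -0.276 to -0.0752 in *E. hyemale*. With 2 libraries a condition the deviations mirror each other, so these values cannot decide whether same-numbered libraries were paired. The main fit treated them as unpaired. Alternatives were pseudocounts of 0.1 and 5 CPM, a filter at 1 CPM, relative log expression factors, library totals, other variance priors, an adjusted p of 0.05, no minimum fold, each library left out, and a replicate block. Python 3.11.15 (numpy 2.4.6, pandas 2.3.3, matplotlib 3.10.9) read the tables and drew the plots.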

Additional observations from a re-analysis of the deposited data

Results flagged for a closer look

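The summed CPM of the TPS1 hits lay on opposite sides of air in different species. The difference of the mean log2 sums, hypoxia minus air, was 0.47 in *P. vittata*, -0.13 in *P. patens* and -0.22 in *S. moellendorffii*, and in each of these every hypoxia library lay on the same side of every air library. The difference between species was not tested: each table was normalized by itself, the hits are not one-to-one orthologs, and with 2 libraries a condition 22.5% of *P. vittata* Trinity genes were higher without overlap, and 20.9% of *P. patens* and 23.5% of *S. moellendorffii* features lower.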

How the results depend on the processing

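The number of called members was 0 in each of the 5 species and remained 0 in all 71 counts, the main one and the alternatives. Of 913 alternative values of the 69 named features and Trinity genes, 0 crossed the threshold and 44 changed sign, all in values that were not called. Library totals in place of TMM moved the median log2FC by -0.04 in *M. polymorpha*, -0.06 in *S. moellendorffii* and -0.04 in *P. vittata*.

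With the replicate number as a block, the count of called members was 0 in *M. polymorpha*, *E. hyemale* and *P. vittata*, as without it. In *P. patens* and *S. moellendorffii* air and hypoxia share fewer than 2 numbers, so no block was fitted there. Under the block the adjusted p of Mapoly0128s0020.1 was 0.0168. Leaving out each library in turn gave 0 called members each time, and the TPS5 hit 117822 of *S. moellendorffii* ran from a log2FC of 0.89 to 1.05. A condition left with 1 library was assumed to vary like the other. In *S. moellendorffii* and *P. vittata*, with 2 libraries a condition, no feature of the whole table was called by the main fit. The paper reports regulated orthogroups in both from its own model. The alternatives run on the *P. vittata* Trinity genes were chosen after seeing the data.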

Other observations

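The *E. hyemale* libraries, 6 in number, allowed a search for features whose pattern is most like that of the most-read member, the TPS5 hit Ehym_DN110949_c6_g3. Among 24992 features of 5 CPM or more, the highest correlation of log2(CPM + 1) over the 6 libraries was with Ehym_DN98658_c1_g1, whose best hit is a subtilase (AT5G67360), at r = 0.9991. The next 4 features, at r = 0.9935 to 0.9945, had no *A. thaliana* hit. The libraries share depth and condition, and with 6 points and so many features such values are a description only.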
